A study of Mus musculus with 36 samples.

Results

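The comparison was between the 2 solvents that carried the drugs of the study, in BV-2 cells cultured for 4 h with either one and with no lipopolysaccharide (LPS) and no drug. The members were the 3 DMSO libraries and the 3 ethanol (EtOH) libraries of that time, taken by their labels, which is 6 of 36 libraries in the series, and all genes were tested. BV-2 is an immortalised murine microglial line of wild-type genotype, grown in high-glucose medium with serum, and both solvents stood at 0.2% of the medium. Per the labels, serum was cut to 0.1% just before treatment in the experiments that used LPS. The 24 h libraries of both solvents and the 4 h libraries with LPS at 600 ng/mL are also used below. In the study, DMSO carried dimethyl and monomethyl fumarate and EtOH carried cannabidiol, so the solvents served different drugs. For expression in microglia the study gave each drug with LPS and compared it with LPS alone, and compared LPS with each solvent. Each label carries a replicate number from 4 to 6, all cultures are of 1 line, and the methods give experiments repeated 3 times without saying which cultures of the solvents shared a day. An untreated culture without solvent was not analysed here, so a gene that was higher in DMSO could equally be called lower in EtOH, and every direction below is that of DMSO over EtOH.

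Cells sense falling oxygen through prolyl hydroxylases of the EGLN family, which mark the alpha subunits of hypoxia-inducible factor (HIF) for destruction by the VHL ligase. When hydroxylation slows, HIF binds short DNA elements near its targets and raises glucose uptake, glycolysis, blood vessel growth factors and mitochondrial turnover, and in macrophages and microglia HIF-1 also accompanies inflammatory activation and lactate production. The hydroxylases need iron and 2-oxoglutarate as well as oxygen.

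Counted reads ran from 15.0 M to 17.0 M per library, with mitochondrial transcripts at 1.99 to 2.24% and the 10 most abundant genes at 5.13 to 5.61% of the reads. Within a pair, mitochondrial transcripts took a smaller share in DMSO than in EtOH each time. No library was a copy of another of its group (chi-square per degree of freedom of 4.60 to 17.3 between libraries). Microglial and myeloid markers were high, with mean normalized counts of 9914 for Ptprc (CD45), 9609 for Csf1r and 3733 for Spi1 (PU.1). Of 20 such markers 15 passed the filter on low values, the homeostatic marker Tmem119 averaged 73.1, and C1qa had a read in 1 library (mean 0.161). The summed marker level of other cell types was low for neurons (160 to 252), astrocytes (13.5 to 22.4), endothelial cells and fibroblasts (131 to 193) and lymphocytes (14.1 to 29.0), and the oligodendrocyte sum of 1534 to 1755 came mostly from Mbp.

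The model held the replicate number as a block, and libraries of the same number deviated from their group means together, least so in replicate 6 (a correlation of 0.30). With that block, 876 of 11458 tested genes differed between DMSO and EtOH at 4 h (7.65%), by limma's moderated test at a Benjamini-Hochberg adjusted p below 0.05. Of these, 440 were higher in DMSO (3.84% of those tested) and 436 were lower (3.81%). Most differences were small, with a median absolute log2 fold change (log2FC) of 0.26 among called genes, and 24 went beyond 1, of which 17 were higher and 7 lower in DMSO. The median log2FC over all tested genes was 0.00. All 3 pairs moved the same way in 874 of the 876 called genes, which the blocked fit favours, and in 44.7% of all tested genes. Without the block no gene passed in limma (1051 had an unadjusted p below 0.05) or in edgeR (1047), and 79 passed in DESeq2. Likewise, 0 passed in the blocked limma fit when the spread was not allowed to follow the expression level, with 1948 at an unadjusted p below 0.05. Blocked edgeR called 903 genes and blocked DESeq2 335.

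Of the 44 lists with a tested member, that of glycolysis and the hypoxia response had the highest share of members called. The lists had been chosen with earlier results of these data known, so this ranking is a description. Of 22 list members, all tested, 18 were higher in DMSO and 0 were lower, at a median log2FC of 0.31, against 3.84% of all genes called in that direction. The list holds glucose transporters and glycolytic enzymes, HIF-1 alpha and some of its well-known targets, and 20 members had an unadjusted p below 0.05, all of them in that direction. Leaving out 1 pair of libraries kept 14 to 18 members called, blocked edgeR and DESeq2 called 18 and 17, and no member passed in limma without the intensity trend. Without the block, 0 members passed in limma and edgeR and 2 in DESeq2. The called members ran from 0.12 for Eno1 (enolase) to 1.24 for Ankrd37. Their groups were apart, meaning that every DMSO library lay above every EtOH library, in 5 of the 18. Among all 440 genes called higher the groups were apart in 232, and among all tested genes in 14.6%, in either direction. In 16 of the 18, replicate 5 was the highest library of both solvents, as it was in 24.6% of all tested genes.

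Promoter sequences are shown for the 4 called members with the smallest adjusted p among those that hold the letters ACGTG, the core at which HIF is known to bind. The sequences are from RefSeq (GRCm38.p6), run 5′ to 3′ on the gene's strand from 250 bases before the annotated start to 50 after it, and carry ACGTG or its complement CACGT in capitals. CACGTG, which holds both, is also the E-box read by other factors.
Bnip3 (chr7:138909457-138909756, minus strand): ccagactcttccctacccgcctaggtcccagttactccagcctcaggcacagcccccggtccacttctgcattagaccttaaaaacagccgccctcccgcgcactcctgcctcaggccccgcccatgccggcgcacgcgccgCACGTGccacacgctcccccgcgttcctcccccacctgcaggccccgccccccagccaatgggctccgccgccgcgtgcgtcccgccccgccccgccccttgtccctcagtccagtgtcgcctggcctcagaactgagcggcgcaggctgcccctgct
Hk2 (chr6:82774405-82774704, minus strand): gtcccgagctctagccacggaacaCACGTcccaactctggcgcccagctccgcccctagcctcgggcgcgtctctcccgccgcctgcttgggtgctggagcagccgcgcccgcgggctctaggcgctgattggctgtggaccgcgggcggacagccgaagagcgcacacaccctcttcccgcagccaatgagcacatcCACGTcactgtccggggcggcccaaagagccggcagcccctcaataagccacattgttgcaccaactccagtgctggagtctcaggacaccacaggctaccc
Slc2a1 (chr4:119108495-119108794, plus strand): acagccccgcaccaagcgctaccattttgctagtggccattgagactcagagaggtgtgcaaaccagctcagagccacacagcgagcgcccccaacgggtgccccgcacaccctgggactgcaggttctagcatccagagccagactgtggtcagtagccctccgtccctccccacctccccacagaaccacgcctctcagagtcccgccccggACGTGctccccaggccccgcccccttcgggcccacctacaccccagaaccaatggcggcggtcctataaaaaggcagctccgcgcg
Ankrd37 (chr8:45999801-46000100, minus strand): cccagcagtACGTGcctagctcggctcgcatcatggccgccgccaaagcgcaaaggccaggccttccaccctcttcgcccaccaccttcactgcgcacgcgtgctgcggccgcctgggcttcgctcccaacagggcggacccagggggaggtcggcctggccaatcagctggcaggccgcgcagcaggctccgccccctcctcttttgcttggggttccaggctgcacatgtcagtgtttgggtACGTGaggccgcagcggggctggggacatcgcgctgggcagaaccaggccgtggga

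The motif, searched on both strands, stood in 26.2% of the promoters of tested genes (2372 of 9046 matched by symbol) and in 19.7% of all 27025 promoters of the table. It was found in 112 of 338 matched genes that were higher in DMSO (33.1%) and in 66 of 339 that were lower (19.5%). In the glycolysis and hypoxia list it was found in 11 of 21 promoters, 8 of them among the 17 matched members that rose. Vegfa, Pfkl and Pfkp rose with no ACGTG on either strand of this window. The other form of the core, GCGTG, was not counted, and it stands in the windows of Pfkl and Pfkp. These are counts of letters in a short window, and no binding was measured.

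Ndrg1, a stress-responsive gene widely used as a readout of HIF activity (ENSMUSG00000005125, GRCm39 chr15:66801167-66841489), had normalized counts of 7969, 18433 and 12603 in DMSO replicates 4, 5 and 6 and of 4677, 10457 and 4633 in the EtOH libraries of the same numbers. Each DMSO library exceeded its partner, while the groups overlapped because EtOH replicate 5 was above DMSO replicate 4. The log2FC was 1.01 ± 0.09 (limma's moderated SE, n = 3 pairs), with a limma adjusted p of 1.03e-04. Every SE here and below is that moderated value, which draws on genes of similar level as well as on the 3 pairs. The differences of Ndrg1 in pairs 4, 5 and 6 were 0.77, 0.82 and 1.44 on the log2 scale. Vegfa, which encodes the vascular endothelial growth factor, had 2045, 3409 and 2649 in DMSO and 1381, 2273 and 1325 in EtOH, a log2FC of 0.72 ± 0.07 (limma adjusted p = 1.03e-04). Here too replicate 5 was the highest of each solvent and replicate 6 showed the widest gap. Bnip3, a mitophagy receptor, had 1348, 2314 and 1899 in DMSO against 906, 1531 and 920.03 in EtOH and a log2FC of 0.74 ± 0.07 (limma adjusted p = 1.16e-04). Ankrd37, a small ankyrin repeat gene induced by HIF, had lower counts, 349, 838 and 664 in DMSO and 200.6, 437.4 and 168.0 in EtOH, with a log2FC of 1.24 ± 0.16 (limma adjusted p = 6.61e-04). In all 4 genes EtOH replicates 4 and 6 were the lowest libraries and DMSO replicate 5 the highest.

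**Figure D1:**
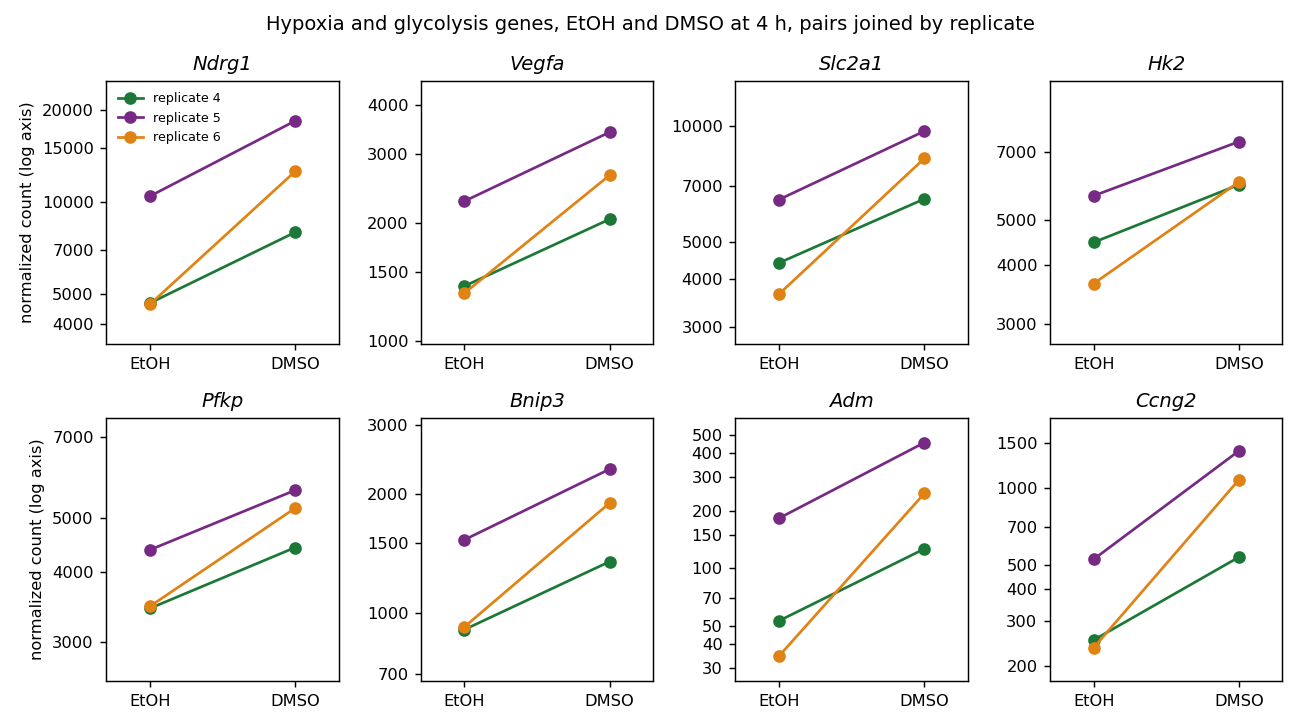
Normalized counts (log axis) of 8 genes in the 3 EtOH and 3 DMSO libraries at 4 h, with points of the same replicate joined. Every line rises from EtOH to DMSO, replicate 5 is the highest in both solvents in each panel, and replicate 6 has the steepest line.

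Among the glycolytic genes, those for glucose entry and the first steps are given first. Slc2a1, the glucose transporter GLUT1, had 6472, 9709 and 8246 in DMSO and 4415, 6448 and 3663 in EtOH, so that the lowest DMSO library stood just above the highest EtOH library (log2FC 0.77 ± 0.08, limma adjusted p = 1.63e-04). Hk2, the inducible hexokinase, had 5963, 7379.9 and 6045 against 4483, 5646 and 3656 and a log2FC of 0.51 ± 0.05 (limma adjusted p = 1.27e-04). The phosphofructokinase genes Pfkp and Pfkl had a log2FC of 0.44 ± 0.04 and 0.40 ± 0.04, each with a limma adjusted p of 1.16e-04. The groups of Hk2 and Pfkp did not overlap, whereas those of Pfkl did. Hk1 rose by 0.37, the isomerase gene Gpi1 by 0.28 and Pdk1, whose kinase inhibits pyruvate dehydrogenase, by 0.34 (all log2FC, limma adjusted p of 3.74e-04, 2.44e-04 and 6.61e-04). Of the later steps, Pgk1 rose by 0.15 and Eno1 by 0.12, with limma adjusted p of 0.00515 and 0.0135. Pkm and Ldha, the last enzymes on the way to lactate, had a log2FC of 0.07 and 0.06 and did not pass (limma adjusted p = 0.139 and 0.174). Gapdh rose by 0.25 (limma adjusted p = 0.00218), but glycolytic genes with near-identical pseudogene copies, Gapdh above all, can lose or share reads in counting and their values are uncertain. Slc2a1, Gpi1, Hk1, Pdk1, Pgk1, Eno1, Gapdh and Hif1a were named after their values had been seen. Of the HIF system itself, Hif1a had a log2FC of 0.03 (95% confidence interval -0.05 to 0.12, limma adjusted p = 0.668).

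A further list of 45 HIF targets and regulators was written after the calls had been seen, and its counts are a description only. Of 42 tested, 26 were higher and 0 lower in DMSO, with a median log2FC of 0.37, and 2 were lower at an unadjusted p below 0.05. The list left out Tfrc, also known as a HIF target, which was lower in DMSO (log2FC -0.71, limma adjusted p = 1.03e-04). The 0 therefore depends on which genes were listed. Adm, the vasoactive peptide adrenomedullin, had 126, 455 and 246 normalized counts in DMSO and 53.1, 183 and 34.7 in EtOH, and replicate 5 of EtOH exceeded replicate 4 of DMSO. Its log2FC was 1.78 ± 0.23 (limma adjusted p = 5.62e-04). Ccng2, an atypical cyclin linked to cell cycle arrest, had 535, 1398 and 1077 against 253, 525 and 236, with no overlap, and a log2FC of 1.56 ± 0.14 (limma adjusted p = 1.03e-04). Ero1a, the oxidase of protein disulfide formation, rose by 0.82 ± 0.07 and had the smallest adjusted p of a rising gene, 9.22e-05 in limma. Ddit4 (REDD1), an inhibitor of mTORC1, rose by 1.05 and the enolase gene Eno2 by 1.02, on the log2FC scale, both at a limma adjusted p of 1.03e-04. Regulators of the pathway were among those higher in DMSO: Egln1, the main HIF prolyl hydroxylase and itself a HIF target, had 2643, 3722 and 3093 in DMSO against 2086, 2698 and 2101 in EtOH, a log2FC of 0.45 ± 0.04 (limma adjusted p = 1.03e-04). Vhl followed at 0.38 (limma adjusted p = 0.00984), whereas Egln3 at 0.54 and Epas1 (HIF-2 alpha) at -0.24 did not pass (limma adjusted p = 0.348 and 0.742). Kdm3a, a histone demethylase under HIF control, rose by 0.60, the collagen hydroxylase gene P4ha1 by 0.44 and the glycogen synthase gene Gys1 by 0.53, each a log2FC with groups apart (limma adjusted p of 1.63e-04, 1.63e-04 and 1.16e-04).

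The 6 genes with the smallest adjusted p, ties broken by the unadjusted p, were Clec5a, Ero1a, Ndrg1, Ccng2, Ddit4 and Tfrc, at limma adjusted p of 8.18e-05 to 1.03e-04. Clec5a and Tfrc were lower in DMSO and the other 4 higher.

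Among all genes, the 8 largest rises by the naming rule were in Lrrc32, Adm, Ccng2, Nos2, Ankrd37, Garin1a, Dact3 and Kctd11. Lrrc32 encodes GARP, which holds latent TGF-beta at the cell surface, and had 40.2, 110.5 and 52.2 normalized counts in DMSO and 8.85, 48.4 and 8.45 in EtOH (log2FC 1.91 ± 0.27, limma adjusted p = 0.00109). Nos2, the inducible nitric oxide synthase, was highest in the pair of replicate 5, at 20.6, 258 and 74.6 in DMSO and 11.8, 129.7 and 11.3 in EtOH. Its groups overlapped widely, and its log2FC of 1.46 ± 0.30 had a limma adjusted p of 0.0103. Kctd11 rose by 1.11 (limma adjusted p = 1.16e-04), while Garin1a and Dact3, at 1.17 and 1.14, were low in counts (56.9 ± 22.9 and 54.8 ± 11.7 in DMSO, SD, n = 3). The heme oxygenase gene Hmox1, a target of both HIF and Nrf2, had 3218, 3569 and 3626 in DMSO and 2202, 3135 and 2623 in EtOH, with groups apart (log2FC 0.40 ± 0.06, limma adjusted p = 8.87e-04). It was the only riser of the 19 tested genes of Nrf2 and its targets, of which 1 other fell. At an unadjusted p below 0.05, 10 of the 19 were lower and 2 higher, and the list median was -0.08.

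Clock, early response and stress lists held smaller numbers of rising genes, to be read beside the 3.84% of all genes called higher and the 3.81% called lower. In the circadian list 4 of 14 rose and 0 fell, and blocked DESeq2 called 2 (median log2FC 0.22, 6 at an unadjusted p below 0.05, all higher). They were Bhlhe40 (0.85), a repressor that HIF also induces, Per1 (0.47), Nr1d1 (0.33) and Ciart (0.39), and in each of them the groups were apart. Among 24 immediate early genes, 4 rose and 1 fell. Ier3, an early gene that restrains cell death, had 1397, 2794 and 2273 in DMSO against 880.1, 1534 and 801 in EtOH (log2FC 1.01 ± 0.11, limma adjusted p = 1.50e-04), whereas Fos fell by 0.30 (limma adjusted p = 0.00958). Fosl2, Klf2 and Junb rose by 0.43, 0.61 and 0.24. Of 20 genes of the ATF4 stress response and amino acid supply, 6 rose and 2 fell, 6 to 9 were called when a pair was left out, and blocked DESeq2 called 4 higher and 0 lower. Ddit4 led the risers, followed in log2FC by Atf3 (0.48), Trib3 (0.44) and Sesn2 (0.36), all sensors or feedback genes of stress, while Atf5 fell by 0.25. The serine and asparagine synthesis enzymes of that list did not pass. Among 32 chromatin modifiers 5 rose and 1 fell, led by the histone demethylase genes Kdm6b (0.57) and Kdm5b (0.52), but blocked DESeq2 called 1 higher and 0 lower. In the mitosis and spindle list 2 of 25 rose and 0 fell, near the 7.65% of all genes called in either direction, with 10 higher and 0 lower at an unadjusted p below 0.05.

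**Figure D2:**
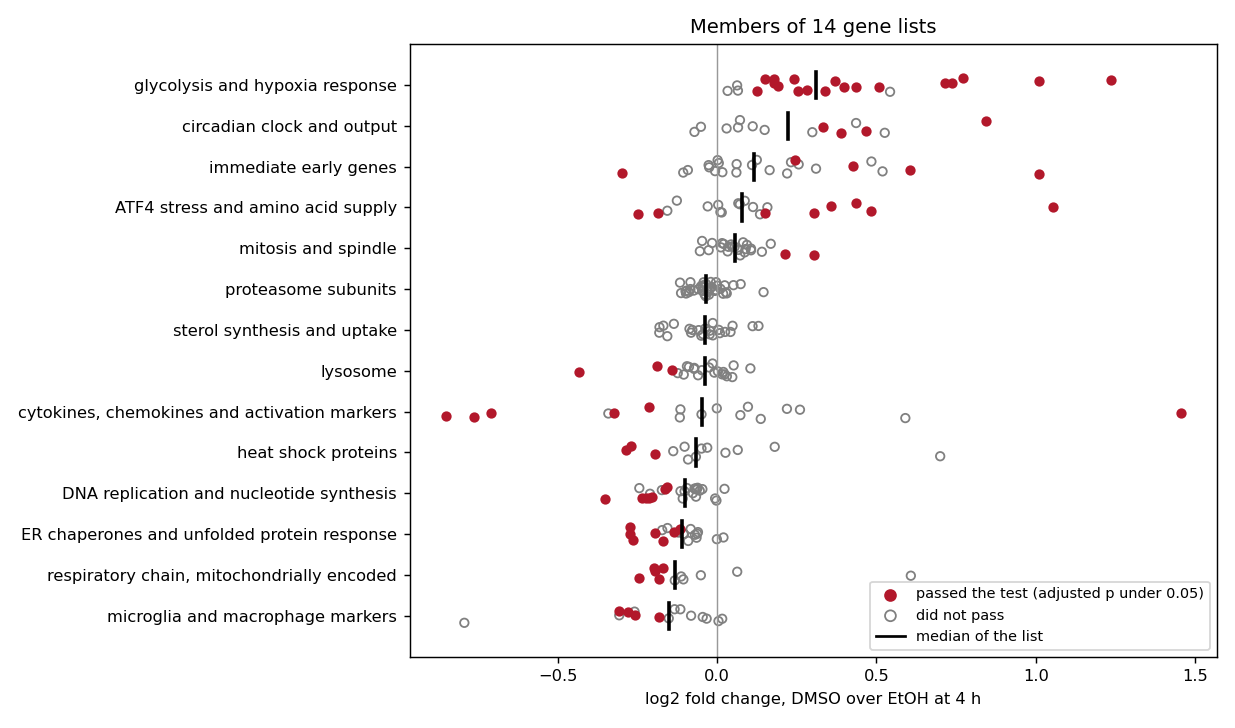
Log2 fold changes of DMSO over EtOH at 4 h for the members of 14 gene lists, with members that passed the test filled and the list median as a bar. Filled points of the glycolysis and hypoxia list all lie to the right of 0, and those of the ER chaperone, DNA replication, mitochondrially encoded and microglial marker lists all lie to the left.

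The gene with the smallest adjusted p of all was lower in DMSO. Clec5a, a myeloid lectin receptor that signals through DAP12, had 3787, 3424 and 3942 normalized counts in DMSO and 5042, 5252 and 5729 in EtOH, with a clear gap between the groups. Its log2FC was -0.52 ± 0.04 (limma adjusted p = 8.18e-05). Tfrc, the transferrin receptor that brings iron into cells (ENSMUSG00000022797, GRCm39 chr16:32427738-32451612), had 3609, 2869.7 and 3026 in DMSO and 5565, 4081 and 6031 in EtOH. No DMSO library reached the lowest EtOH library, and the log2FC was -0.71 ± 0.07 (limma adjusted p = 1.03e-04). Tfrc is also known as a HIF target, and its direction was opposite to that of the HIF targets described above. The 8 largest falls by the naming rule were in genes of low counts, with no EtOH library above 181: F12 (-1.29), the coagulation factor, 4931408C20Rik (-1.11), Pax3 (-0.98), Sla (-0.90), Cd5 (-0.90), Id3 (-0.88), Ptafr (-0.87), the receptor of platelet-activating factor, and Ccl7 (-0.85), all as log2FC. F12 read 79.3, 19.1 and 73.6 in DMSO and 97.4, 111 and 159.6 in EtOH, and 1 DMSO library, replicate 5, was far below the rest.

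Some inflammatory genes fell and others did not pass. Of 17 tested cytokines, chemokines and activation markers, 1 rose (Nos2) and 5 fell, against 3.81% of all genes called lower, and blocked DESeq2 called 0 higher and 2 lower. Ccl2, the main monocyte attractant, had 709, 469 and 630.2 in DMSO and 918, 938 and 1192 in EtOH, a log2FC of -0.76 ± 0.09 (limma adjusted p = 3.76e-04). Its neighbour in function Ccl7 had 63.7, 52.1 and 57.6 against 90.5, 99.7 and 127, with groups apart as for Ccl2. Ccl9 fell by 0.32, the early activation antigen gene Cd69 by 0.71 and Tnf by 0.21 on the log2 scale (limma adjusted p = 0.00143, 0.0178 and 0.0261), and none of these groups overlapped. Ptgs2 and Acod1, the most abundant members that did not pass, had a log2FC of -0.12 and -0.12. The list median was -0.05, and the members that did not pass lay on both sides of 0. Among 14 NF-kB subunits and inhibitors 2 rose (Nfkb2 by 0.25 and Tnfaip3 by 0.49) and 1 fell (Nfkbid, log2FC -0.28). Of 18 interferon-stimulated genes, Stat2 rose (0.28) and Mx1 fell (log2FC -0.73), while the others did not pass, and blocked DESeq2 called 0 of the list.

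Of 15 tested markers 4 fell and 0 rose, against 3.81% of all genes called lower, at a median log2FC of -0.15, and 0 were higher even at an unadjusted p below 0.05 while 7 were lower. Spi1, the transcription factor PU.1 that defines the myeloid lineage, had 3226, 3532 and 3234 in DMSO and 3786, 4611 and 4008 in EtOH (log2FC -0.31 ± 0.04, limma adjusted p = 3.74e-04). The receptor gene Trem2 fell by 0.26, its adaptor Tyrobp (DAP12, through which Clec5a also signals) by 0.18 and Fcgr1 by 0.28, with limma adjusted p of 0.00423, 0.0160 and 0.0410. The abundant markers Ptprc and Csf1r had -0.05 and -0.08 and did not pass. In bulk RNA, fewer cells of a type and less RNA per cell cannot be told apart. Of the 4 calls, 4 were left without replicate 4, 2 without replicate 5 and 2 without replicate 6, where 3 markers were called in all. Blocked DESeq2 kept 3 of them and the fit of 12 solvent libraries kept 1.

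**Figure D3:**
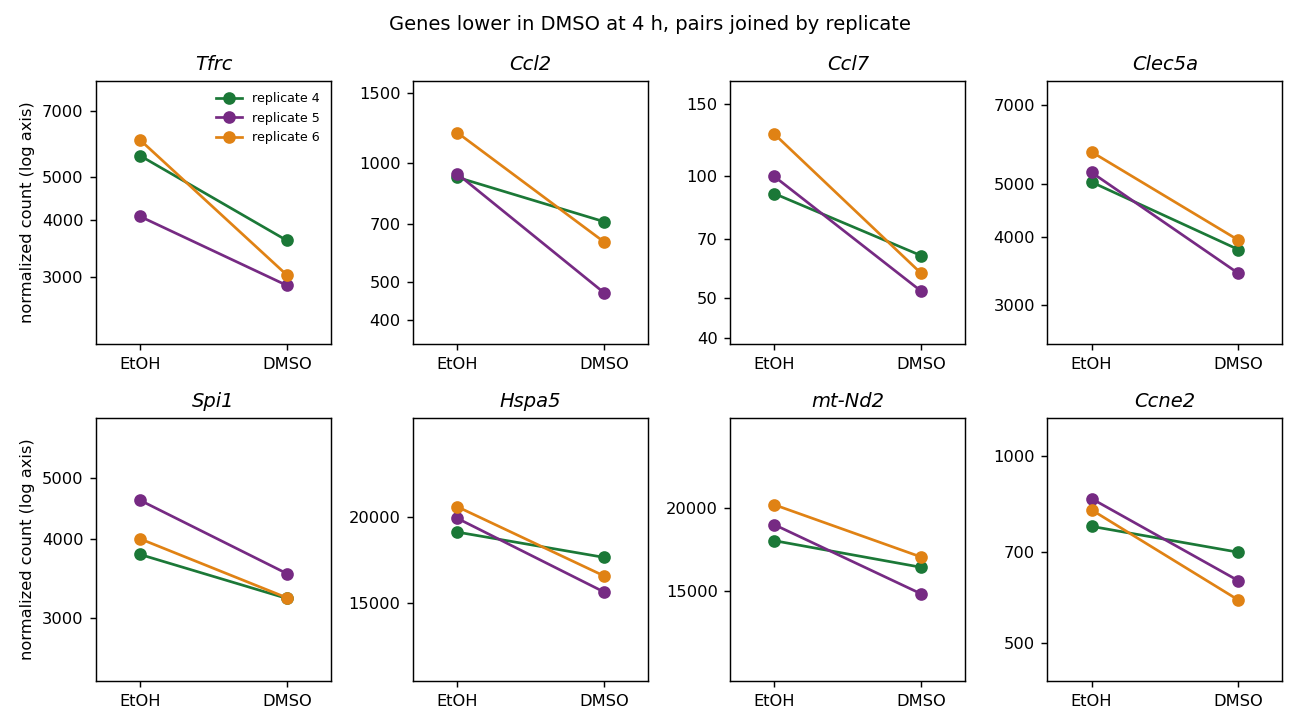
Normalized counts (log axis) of 8 genes in the 3 EtOH and 3 DMSO libraries at 4 h, with points of the same replicate joined. Every line falls from EtOH to DMSO, and in each panel the 3 DMSO libraries lie below the 3 EtOH libraries.

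A minority of the endoplasmic reticulum, mitochondrially encoded and replication genes fell, by small amounts. In the endoplasmic reticulum list 7 of 20 fell and 0 rose, against 3.81% of all genes called lower (median log2FC -0.11, with 13 lower and 0 higher at an unadjusted p below 0.05). Hspa5 (BiP), the master chaperone of that compartment, had 17469, 15544 and 16410.4 in DMSO and 19026, 19935 and 20729 in EtOH, a log2FC of -0.27 ± 0.04 (limma adjusted p = 0.00129). Xbp1 fell by 0.27, Manf by 0.19 and Calr by 0.17, while Canx had -0.06 and did not pass. The count of this list was not stable, at 12 without replicate 4, 2 without replicate 5, 4 without replicate 6 and 3 once each library's trend with GC content and length was removed. Blocked DESeq2 called 3. Of 13 heat shock genes 3 fell and 0 rose, beside the same 3.81%: Dnaja1 (log2FC -0.27), Hspa8 (-0.19) and Bag3 (-0.29).

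Of 11 tested transcripts of the mitochondrial genome 5 fell and 0 rose, against 3.81% of all genes called lower (median log2FC -0.13), with 3 to 5 called when a pair was left out. mt-Nd2, a subunit of complex I, had 16275, 14849 and 16862 in DMSO and 17839, 18849.9 and 20192 in EtOH (log2FC -0.25 ± 0.04, limma adjusted p = 0.00134). mt-Cytb fell by 0.20, mt-Nd4 by 0.20, mt-Nd6 by 0.18 and mt-Nd1 by 0.17, whereas mt-Co1 had 0.06 and did not pass. The respiratory chain subunits encoded in the nucleus gave 1 riser and 1 faller among 81. Neighbouring mitochondrial genes overlap on opposite strands and whether reads were counted by strand is not given in the sources used here, so mt-Nd6 is uncertain.

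Of 25 genes of DNA replication and nucleotide synthesis 7 fell and 0 rose, against 3.81% of all genes called lower (median log2FC -0.10, with 11 lower and 0 higher at an unadjusted p below 0.05). The cyclin genes that start S phase, Ccne2 and Ccne1, fell by 0.35 and 0.22, with groups apart in both. Rrm2, the regulated subunit of ribonucleotide reductase, fell by 0.20, Tyms by 0.23 and Pcna by 0.16, while Mcm5 had -0.07 and did not pass (limma adjusted p of 0.00775 for Ccne2, 0.00447 for Rrm2 and 0.243 for Mcm5). This count was 1 without replicate 5, 2 without replicate 6 and 2 in blocked DESeq2. In the osmotic response list 3 of 10 fell and 0 rose, beside 3.81% of all genes, namely the osmolyte transporter genes Slc6a12 (log2FC -0.50) and Slc5a3 (-0.29) and the kinase gene Sgk1 (-0.25).

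Several lists gave few calls or none, and blocked edgeR and DESeq2 also called 0 wherever limma called 0 here. In the list of alcohol and aldehyde oxidation 0 of 9 tested genes passed in limma, with 2 at an unadjusted p below 0.05. Of 3 methionine sulfoxide reductases 1 fell. Sterol synthesis and uptake gave 0 of 23 (7 at an unadjusted p below 0.05), metallothioneins and zinc transporters 0 of 12 (2), proteasome subunits 0 of 37 (7) and replication-dependent histones 0 of 14 (2). The shares called were at or below the 7.65% of all genes for the cytosolic ribosomal proteins (6 of 84), the mitochondrial ribosomal proteins (3 of 78) and the zinc finger genes (11 of 292), and close to it for the solute carriers (18 of 208) and the translation initiation factors (4 of 51). Of the remaining lists, splicing factors had 7 of 64 called, p53 targets 4 of 14, the actin list 4 of 24, the lysosome and ribosome biogenesis lists 3 of 22 and 3 of 24, fatty acid synthesis 2 of 13, cholesterol efflux 2 of 12, glucocorticoid targets 2 of 7, and the cytosolic and mitochondrial tRNA synthetases 1 of 20 and 1 of 17. Of 9 tested markers of neurons, astrocytes, oligodendrocytes, endothelial cells, fibroblasts and lymphocytes, 0 passed in limma, and 1 had an unadjusted p below 0.05.

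The 24 h libraries of the same solvents were used to see whether the same genes differed between the solvents later. At 24 h 20 of 11715 tested genes differed (0.171%), all of them lower in DMSO, and 0 were higher in limma, although 433 had an unadjusted p below 0.05 in that direction. Blocked edgeR and DESeq2 also called 0 higher. With pair 4, 5 or 6 left out, the 24 h limma fit called 17, 4 and 19 higher, of 51, 63 and 99 genes. Of the 876 genes called at 4 h, 875 were measured at 24 h and 42.5% kept their direction, against 47.0% of all 11337 genes measured at both times. Genes higher in DMSO at 4 h had a median log2FC of -0.03 at 24 h, and 0 of the 440 were called there by limma. In the glycolysis and hypoxia list the 24 h log2FC ran from -0.30 to 0.10, with a median of -0.02 and 0 of 22 called. Averaged over that list on the log2 scale, DMSO exceeded EtOH by 0.28, 0.32 and 0.60 in pairs 4, 5 and 6 at 4 h, and by -0.03, 0.02 and -0.09 at 24 h. These list means ran from 12.1 to 12.6 in EtOH and from 12.4 to 12.9 in DMSO at 4 h. At 24 h they ran from 13.4 to 13.6 in both solvents, on values scaled separately for each time. Ndrg1 at 24 h had 41033, 53082 and 45202 in DMSO and 42683, 53403 and 56959 in EtOH, and the groups overlapped.

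Tested as an interaction in 1 limma fit over the 12 solvent libraries, the DMSO to EtOH difference itself changed between the times in 228 of 11564 genes (1.97%), lower at 24 h than at 4 h in 160 and higher in 68. Of the 228 genes, 147 were among those higher in DMSO at 4 h and 53 among those lower. The list of glycolysis and hypoxia gave 11 of 22, all toward a lower value at 24 h. This test reuses the 4 h libraries that selected the genes called at 4 h. That reuse by itself favours the overlap and a change opposite to the 4 h direction. For Ndrg1 the difference of log2FC was -1.13 (95% confidence interval -1.42 to -0.85, limma adjusted p = 0.00139), for Slc2a1 -0.83 (adjusted p = 0.00204) and for Ccng2 -1.59 (adjusted p = 0.00139). Tfrc went the other way by 0.83 (limma adjusted p = 0.00338). Without replicate 5 only 2 genes were left in this test, and without replicate 4 there were 685.

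**Figure D4:**
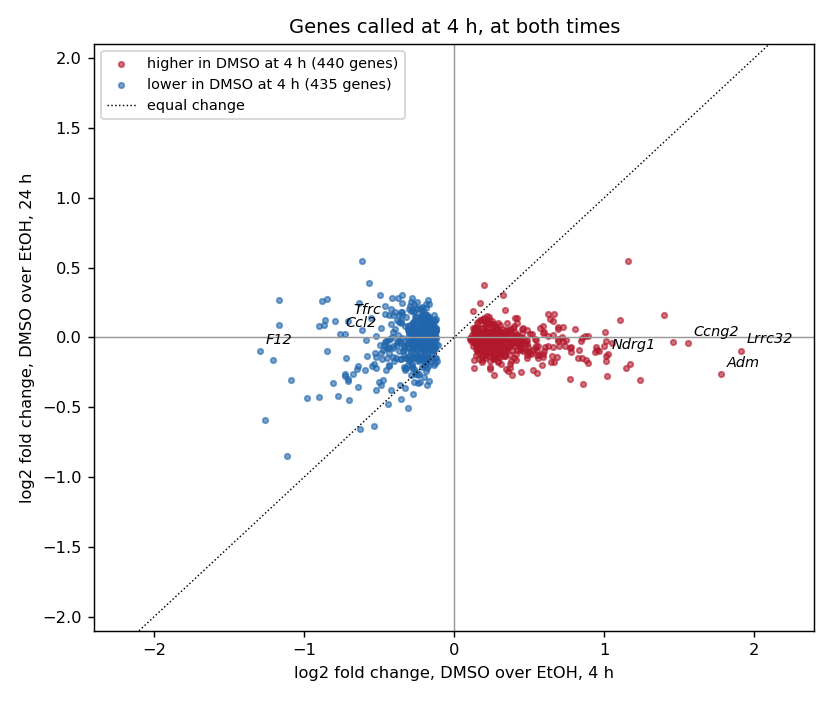
Log2 fold changes of DMSO over EtOH at 4 h (x axis) and 24 h (y axis) for the 875 genes called at 4 h and measured at both times, red for those higher and blue for those lower in DMSO at 4 h. The red points lie mostly around or below 0 on the 24 h axis, with Adm, Ccng2, Lrrc32 and Ndrg1 far from the dotted line of equal change.

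Of the 20 genes that differed at 24 h, 18 had also been lower in DMSO at 4 h and 9 of them had been called there. Lars2, the mitochondrial leucyl-tRNA synthetase, had 3414, 4475 and 4176 normalized counts in DMSO and 9549, 7946 and 9914 in EtOH at 24 h, without overlap, and a log2FC of -1.19 ± 0.08 (limma adjusted p = 1.20e-06). At 4 h its values were 2394, 3421 and 5469 and 2313, 4646 and 4349, with a log2FC of -0.02 (limma adjusted p = 0.923), and the change between the times was -1.16 (limma adjusted p = 0.00204). The other genes named at 24 h were Cdh17 (log2FC -0.52), Plau (-0.41), the urokinase gene, Dab2 (-0.31), Glrx (-0.34) and Ly6c1 (-0.47). Plau, Dab2 and Glrx had also been lower in DMSO at 4 h, by 0.28, 0.17 and 0.18. In the 24 h set EtOH replicates 4 and 6 were deeper, at 26.7 M and 25.1 M reads against 14.1 M to 15.7 M in the rest, and the part of this in the 24 h values was not tested.

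Levels with LPS for 4 h, at 600 ng/mL, are given for scale against each solvent, with no test. Both comparisons share the LPS libraries, and the LPS tables were normalized separately with each solvent, with LPS carrying other replicate numbers (1 to 3) than the solvents. Ndrg1 was at 7601 ± 4414 (SD, n = 3) with LPS in the table shared with DMSO, a log2 difference of -0.79 from DMSO, and of 0.22 from EtOH in the other table. For Ccng2 the values were -1.39 and 0.17, for Adm -0.97 and 0.81, and for Slc2a1 -0.10 and 0.67. The LPS mean lay below DMSO and above EtOH for these 4 genes. For inflammatory genes it lay above both solvents: Ccl2 was 2.93 above DMSO and 2.17 above EtOH on the log2 scale, and Nos2 4.64 and 6.10. Tfrc was 1.23 above DMSO and 0.52 above EtOH.

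**Figure D5:**
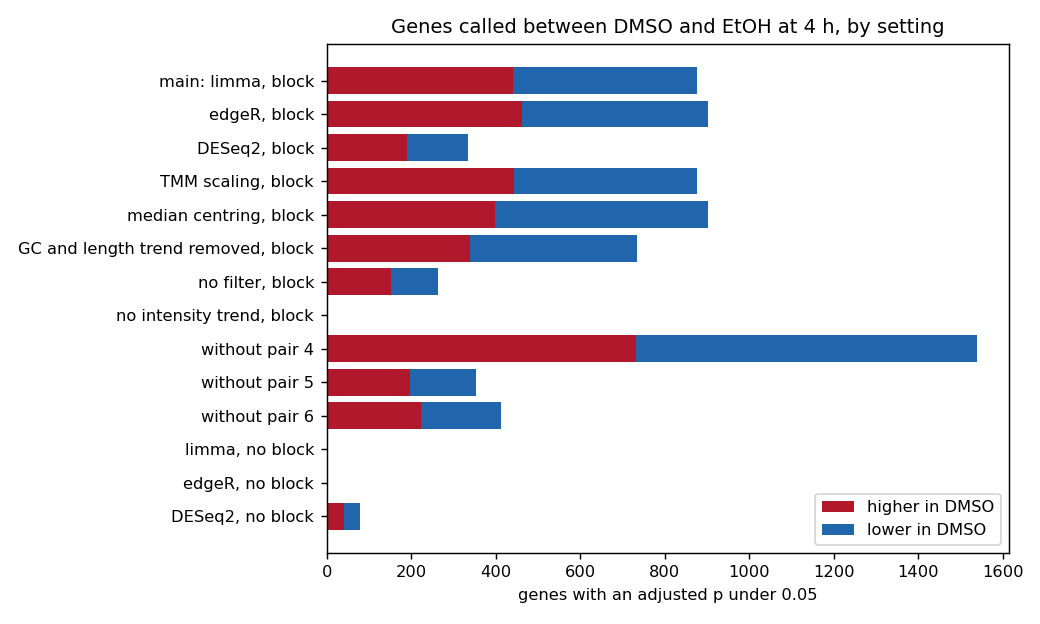
Number of genes with an adjusted p below 0.05 between DMSO and EtOH at 4 h under 14 settings, split into genes higher and lower in DMSO. Counts run from 0 in fits without the block (limma and edgeR) or without the intensity trend to 1538 without the pair of replicate 4.

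The replicate number moved with these results. Replicate 5 had the highest level of most glycolysis and hypoxia genes in both solvents, and without the block limma and edgeR called 0 members of that list and DESeq2 called 2. Whether culture density, medium age, the place of wells or the order of handling differed between the DMSO and EtOH cultures of a pair is not given in the sources used here and was not tested. GC content and gene length followed the differences weakly across genes (Spearman's rho 0.08 and 0.07 over 11453 genes, which are not independent replicates), and 16 of the 18 rising glycolysis and hypoxia members passed with those trends removed.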

How the data were processed

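RNA-seq of poly(A) RNA was measured in BV-2 cells, and 4 of 30 deposited tables were used. Per the labels and the methods, the authors trimmed reads with cutadapt 4.4 and Trimmomatic 0.39, aligned with HISAT2 2.2.1 (GRCm39), counted with HTSeq 2.0.3 and scaled the counts by DESeq2 1.40.2 size factors, separately for each table. The strand setting was not given in the sources used here. The deposited values are that normalized signal, and every value came out as a whole read count (tolerance 0.01 read) once the factor was recovered. The tables also hold the authors' own fold changes and p-values for each comparison, which were not used.

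Log2(normalized count + 1) was fitted with limma 3.58.1 (R 4.3.3), with an intensity trend and the replicate number as a block, for genes at 10 or more in at least 3 of 6 libraries. Differences are DMSO minus EtOH. The change between times was an interaction over the 12 solvent libraries. Counts recovered from the tables went to edgeR 4.0.16 and DESeq2 1.42.0 as alternatives, beside other pseudocounts, filters, scalings, a GC and length correction and leaving out each pair. The 4 h limma fit, with and without the block, was run on simulated counts with known changes. Their levels, replicate effects and spread were taken from these data, and the other steps were not tested in this way.

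The methods and labels do not tie a number to a shared culture or day. Deviations from the group means of same-numbered libraries correlated at 0.62, 0.75 and 0.30 at 4 h (9940 genes) and 0.47, 0.37 and 0.18 at 24 h, all above the limit of 0.1 set for pairing. Differently numbered libraries ran from -0.63 to 0.19 at 4 h and from -0.46 to 0.19 at 24 h. DMSO replicate 4 with EtOH replicate 6 at 4 h passed the limit too. So did DMSO replicate 5 with EtOH replicate 6 at 24 h (0.187, against 0.184 for the pair of replicate 6). The limit therefore did not separate same-numbered from other libraries cleanly. The labels give 3 repeats of each experiment without saying whether these were separate cultures, so the spread between these libraries may be technical. The limma p-values rest on that spread and also on the spread of genes of similar level, through the intensity trend.

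The comparison, the gene lists and the tests were chosen with earlier results of these data known. Named genes were, among called genes whose higher group averaged 50 or more and whose pairs all moved 1 way, the 8 largest rises, the 8 largest falls and the 6 smallest adjusted p, then up to 6 called and 2 uncalled members of each list, up to 6 called genes at 24 h and in the interaction, and Lars2. The text names the members of lists that its results turn on, and members of the further HIF list were chosen after their values were seen. A list of long non-coding RNAs was not analysed here.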

Additional observations from a re-analysis of the deposited data

Results flagged for a closer look

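The difference between DMSO and EtOH was not the same at 4 h and 24 h in 228 genes, by the limma interaction test at an adjusted p below 0.05. The values below are the 24 h minus the 4 h log2FC of DMSO over EtOH for the genes named in the report that passed it. For genes chosen by their 4 h difference, reuse of the 4 h libraries by itself favours the opposite sign. Among glycolysis, hypoxia and HIF target genes these were Adm -2.03, Ccng2 -1.59, Ankrd37 -1.53, Ndrg1 -1.13, Eno2 -1.13, Ddit4 -1.08, Ero1a -0.96, Bhlhe40 -0.87, Slc2a1 -0.83, Bnip3 -0.79, Vegfa -0.71, Gys1 -0.61, Kdm3a -0.55, Pfkp -0.52, Kdm5b -0.48, Hk2 -0.47, P4ha1 -0.46, Egln1 -0.42, Hmox1 -0.38, Pdk1 -0.34, Gpi1 -0.34, Hk1 -0.33 and Pfkl -0.30. Other genes that were higher in DMSO at 4 h gave Lrrc32 -1.999, Dact3 -1.36, Ier3 -1.03, Kctd11 -0.97, Fzd7 -0.80, Klf2 -0.67, Atf3 -0.60, Tnfaip3 -0.57, Per1 -0.54, Unc13a -0.50, Fosl2 -0.47 and Sesn2 -0.37. Fzd7, a Wnt receptor gene, and Unc13a were named by the rule for this test.

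Genes that were lower in DMSO at 4 h gave positive values, with Tfrc at 0.83, Slc6a12 at 0.81, Ccl2 at 0.80, Bag3 at 0.49, Dnaja1 at 0.46, Atf5 at 0.46, Spi1 at 0.40, Clec5a at 0.39, Hspa5 at 0.39, Manf at 0.33 and Xbp1 at 0.32. The mitochondrial transcripts gave mt-Nd2 0.37, mt-Nd6 0.35, mt-Cytb 0.29 and mt-Nd4 0.24. Lars2 at -1.16 and Cdh17 at -0.40 were the 2 named genes whose difference was larger at 24 h. No cause was tested. With 3 libraries a group, no library was tested as standing apart within its group.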

How the results depend on the processing

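The count of 876 genes at 4 h was 0 without the replicate block in limma and in edgeR and 79 in DESeq2, 0 without the intensity trend, 263 without the filter on low values, 335 in blocked DESeq2, 541 with 12 solvent libraries in 1 fit (60.4% of the calls higher in DMSO, against 50.2%) and 134 with an absolute log2FC above 0.5. Leaving out 1 pair gave 353 to 1538, with 1538 without replicate 4, 353 without replicate 5 and 413 without replicate 6, and leaving out 1 library without the block gave 0 to 1. Without the block, limma and edgeR called 0 members in each of the 7 lists tried (glycolysis and hypoxia, ER chaperones, DNA replication, mitochondrially encoded, ATF4, microglial markers and cytokines), while DESeq2 called 2, 1 and 1 in the glycolysis, ER chaperone and cytokine lists and 0 in the other 4. Leaving out a pair gave 2 to 12 for ER chaperones (3 with the GC and length trend removed), 1 to 9 for DNA replication, 3 to 5 for mitochondrially encoded transcripts and 2 to 4 for microglial markers. At 24 h the count of 20 was 1 without the block and 51 to 99 without 1 pair. The interaction count of 228 was 0 without the block and 2 to 685 without 1 pair. Stat2 reversed to -0.0061 and -0.031 in the unblocked fit without DMSO replicate 5 and without EtOH replicate 4. Other pseudocounts, TMM scaling, median centring and blocked edgeR kept the 4 h count between 874 and 903. The cause was not tested. Depth of 15.0 M to 17.0 M reads limits genes of low counts, and 3 libraries a group limit all.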
